A study of Homo sapiens with 6 samples.

Results

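The genes described here were silent in DMSO-treated CAL62 cells and detected in erianin-treated cells. The genes were chosen by their read counts in these 6 libraries. A gene was included when it had at most 3 counts in each of the 3 DMSO libraries and at least 10 in each of the 3 erianin libraries, and 20 of 39327 genes with an Ensembl identifier met this rule (0.0509%). CAL62 is an established human anaplastic thyroid carcinoma (ATC) cell line, labelled wild type, and erianin is a natural compound from Dendrobium. Cells received 50 nM erianin for 48 h, or the solvent DMSO for the same time as the control, in libraries labelled as 3 replicates. RNA sequencing gave between 25776301 and 34107727 reads on genes with DMSO and between 33236000 and 33873551 with erianin, and normalized counts are given in CPM, the count per 1000000 of these reads. Since the counts themselves chose the genes, their values are a description of the 6 libraries and were not tested.

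Many genes of a differentiated body are kept off in any single cell line, either because their promoters lie in closed chromatin or because no activating factor is present. Genes of matrix degradation, osteopontin and regulators of G-protein signaling are known as inducible genes that many cell types switch on after stimulation or stress. Others are ordinarily restricted to a tissue such as liver, lens, inner ear, brain or lactating breast.

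The label of the cells was checked first on 16 thyroid lineage genes. PAX8, a thyroid and kidney transcription factor, averaged 656 CPM with DMSO and 442 CPM with erianin, while TSHR, NKX2-1 and IYD had 0 counts in all 6 libraries. TG, the thyroid hormone precursor, had 0, 0 and 4 counts with DMSO and 13, 2 and 0 with erianin. HHEX averaged 34.5 CPM with DMSO and 42.0 CPM with erianin, DUOX1 7.49 and 7.72 CPM, FOXE1 1.53 and 1.66 CPM and DUOX2 1.25 and 1.34 CPM. Some thyroid genes were thus at or near 0, and others, PAX8 above all, were detected in every library. By the edgeR test described below, PAX8 was called lower with erianin (log2 fold change -0.66, edgeR adjusted p = 0.00404). Of 5 tested thyroid genes 1 was called lower and 0 higher, where 3.36% of all tested genes were lower and 5.37% higher.

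Low counts in this table were mostly even. Among values of 2 or 3, between 82.1% and 85.8% were 2 in each library, and among values from 1 to 20, between 64.4% and 69.5% were even. A count of 2 was therefore the usual step above 0, and of the 60 DMSO values of the 20 genes, 37 were 0, 19 were 2, 2 were 1 and 2 were 3. With DMSO, the 20 genes together held 11, 22 and 13 counts in replicates 1, 2 and 3. With erianin, they held 331, 380 and 373. DMSO replicate 3 stood apart over all genes averaging at least 1 CPM. Its distance on the log2 CPM scale was 50.9 and 51.3 from the other DMSO libraries, which were 18.6 apart. The erianin libraries were between 16.5 and 16.8 apart. DMSO replicates 1 and 2 were 44.2 to 45.7 from the erianin libraries, less than their distance from DMSO replicate 3. That replicate was 50.3 to 51.6 from the erianin libraries. Without DMSO replicate 3 the rule took 33 genes, which include the 20 by construction, since fewer libraries have to meet the limits.

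**Figure D1:**
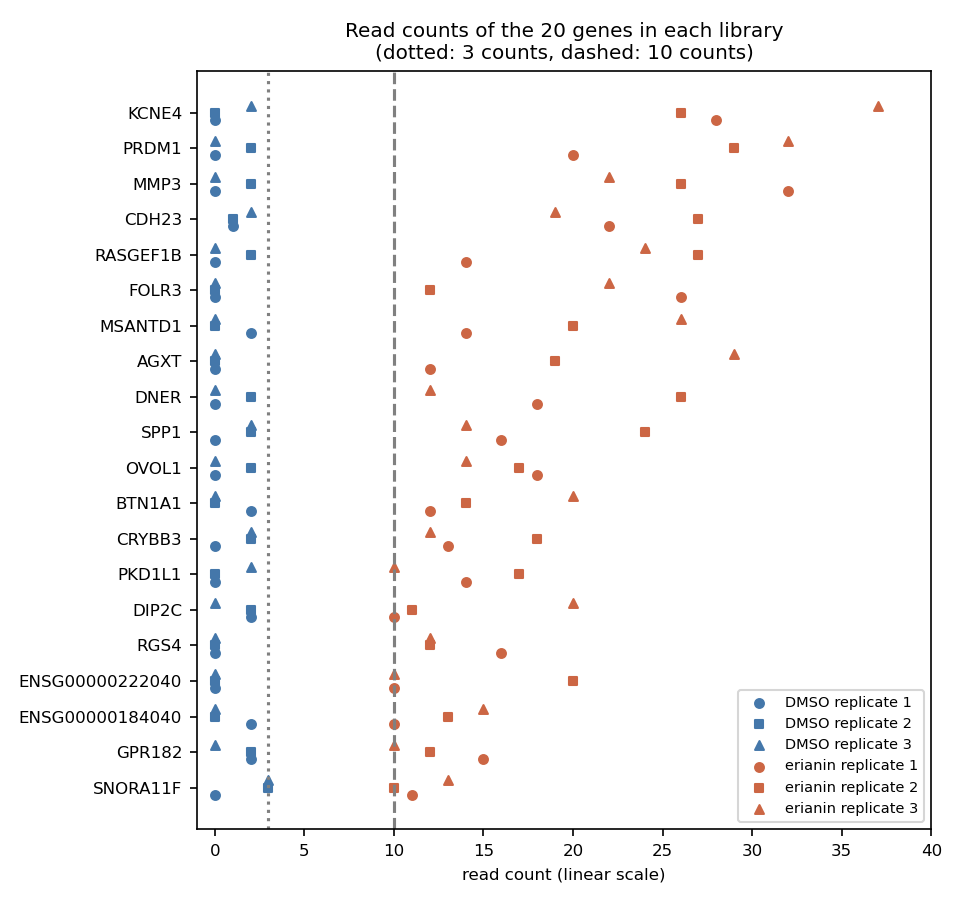
Read count of each of the 20 genes (rows, in order of mean CPM with erianin) in the 3 DMSO libraries (blue) and the 3 erianin libraries (orange), with 1 symbol per replicate. The dotted line marks 3 counts and the dashed line 10 counts, the limits of the rule, and no erianin library exceeded 37 counts.

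Among secreted proteins of the extracellular matrix, the 20 genes held MMP3 and SPP1. MMP3 (ENSG00000149968, GRCh38 chr11:102835801-102843803) encodes stromelysin-1, a protease that cleaves matrix proteins and activates other metalloproteinases. MMP3 had 0, 2 and 0 counts with DMSO and 32, 26 and 22 with erianin, a mean of 0.794 ± 0.158 CPM (SD, n = 3). It was 1 of 3 genes with at least 20 counts in every erianin library. SPP1 (ENSG00000118785, chr4:87975650-87983426) encodes osteopontin, a secreted integrin-binding phosphoprotein. SPP1 had 0, 2 and 2 counts with DMSO and 16, 24 and 14 with erianin (0.535 ± 0.156 CPM, SD, n = 3). In both genes the highest DMSO count was 2.

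MMP3 lies in a cluster of metalloproteinase genes on chromosome 11, whose other members in the count table differed in level. MMP1, the interstitial collagenase, had 86, 133 and 116 counts with DMSO and 605, 615 and 602 with erianin. By edgeR's quasi-likelihood test over 12821 genes, MMP1 rose by 2.21 on the log2 scale (standard error 0.11, edgeR adjusted p = 0.000212). A call required an adjusted p under 0.05 together with a change of more than 0.5 on the log2 scale in either direction, and 5.37% of tested genes were called higher and 3.36% lower with erianin. MMP10, or stromelysin-2, had 8, 10 and 2 counts with DMSO and 64, 82 and 60 with erianin, and rose by 3.09 (standard error 0.42, edgeR adjusted p = 0.00567). MMP10 thus missed the rule on 2 of its 3 DMSO counts, and could be tested only because of its erianin counts. MMP7, MMP8 and MMP13 had 0 counts in all DMSO libraries and at most 4 in any erianin library, and MMP20 and MMP27 had 0 in all 6. Of the 21 other metalloproteinase genes in the table, 11 could be tested, 3 were called higher (MMP1, MMP10 and MMP15) and 0 lower. MMP14, the membrane-type protease, was the most abundant at a mean of 1082 CPM with DMSO and 915 CPM with erianin (log2 fold change -0.33, edgeR adjusted p = 0.0214, under the fold threshold).

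**Figure D2:**
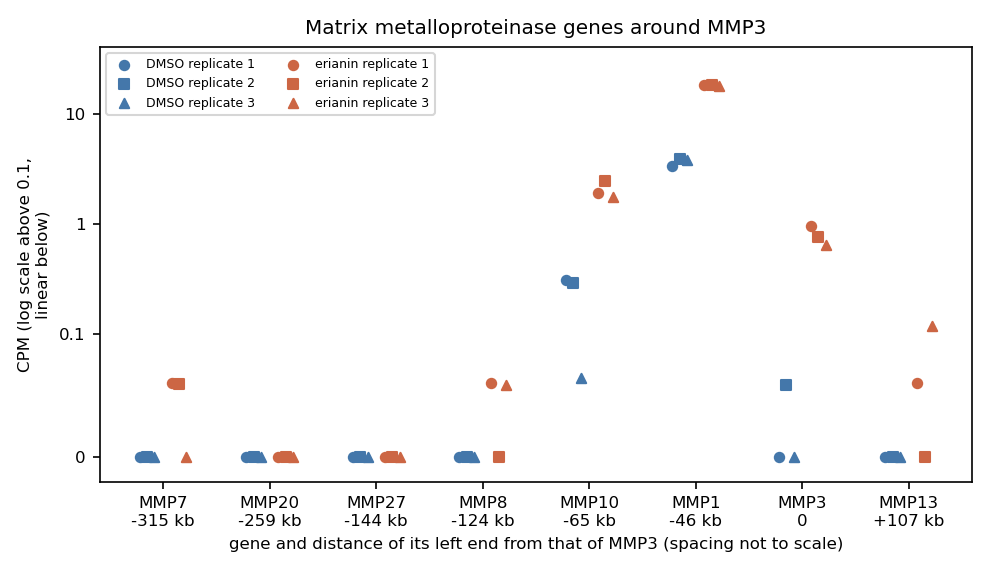
CPM of those metalloproteinase genes of the MMP3 cluster on chromosome 11 that are in the count table, in order along the chromosome. The distance of each gene's left end from that of MMP3 is below its name. Each symbol is 1 library (blue DMSO, orange erianin), and the axis is logarithmic above 0.1 CPM and linear below. MMP10 and MMP1 had higher values in every erianin library than in any DMSO library, as did MMP3, for which the rule requires it.

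Receptors, adhesion proteins and a secreted relative of a receptor family formed a larger set, with FOLR3, CDH23, DNER, BTN1A1 and GPR182. FOLR3 (ENSG00000110203, chr11:72114869-72139892) encodes a secreted folate-binding protein of the folate receptor family. FOLR3 had 0 counts in all 3 DMSO libraries and 26, 12 and 22 with erianin (0.596 ± 0.219 CPM, SD, n = 3), with erianin replicate 2 the lowest. Its relatives, with which it may share reads, did not follow this pattern. FOLR1 had 2, 8 and 4 counts with DMSO and 6, 2 and 4 with erianin, FOLR2 had at most 2 in any library, and none of the 3 other family members could be tested.

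CDH23 (ENSG00000107736, chr10:71396934-71815947) encodes a large cadherin of the tip links between the stereocilia of inner ear hair cells. CDH23 was the only one of the 20 genes with counts in all 3 DMSO libraries, at 1, 1 and 2, against 22, 27 and 19 with erianin. An immune checkpoint gene, VSIR, lies within CDH23 on the opposite strand and had 28, 22 and 16 counts with DMSO and 63, 58 and 78 with erianin (log2 fold change 1.32, standard error 0.31, edgeR adjusted p = 0.0303). Whether counting used the strand is not given in the sources used here, so reads of this pair cannot be told apart where their exons overlap. Of 22 other cadherin genes, 6 could be tested and 0 were called in either direction. Over all tested genes, 5.37% were higher and 3.36% lower.

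DNER (ENSG00000187957, chr2:229357629-229714558) encodes a neuronal transmembrane protein that can act as a Notch ligand. DNER had 0, 2 and 0 counts with DMSO and 18, 26 and 12 with erianin. Of the 6 other Notch ligand genes in the table, DLL4 had 14, 16 and 14 counts with DMSO and 98, 62 and 106 with erianin. DLL4 rose by 2.34 on the log2 scale (standard error 0.29, edgeR adjusted p = 0.00438). DLL1 also rose, by 1.30 (standard error 0.20, edgeR adjusted p = 0.00788), while DLL3, DLK2 and JAG2 did not pass, with log2 fold changes of 0.33, -0.15 and -0.21. BTN1A1 (ENSG00000124557, chr6:26501221-26510422) encodes butyrophilin, a major protein of the milk fat globule membrane. BTN1A1 had 2, 0 and 0 counts with DMSO and 12, 14 and 20 with erianin. Its 6 testable relatives were not called, where 5.37% of all tested genes were higher and 3.36% lower. Among these relatives, BTN2A2, at 55.7 CPM with DMSO and 58.5 CPM with erianin, had a log2 fold change of -0.02. GPR182 (ENSG00000166856, chr12:56994446-56998441) encodes an atypical chemokine receptor of endothelial cells. GPR182 was close to the limit, with 2, 2 and 0 counts with DMSO and 15, 12 and 10 with erianin.

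The channel genes were KCNE4 and PKD1L1. KCNE4 (ENSG00000152049, chr2:223051814-223198399) encodes an accessory subunit that modulates voltage-gated potassium channels. KCNE4 had the highest normalized count of the 20 genes, at 0.902 ± 0.169 CPM (SD, n = 3), from 28, 26 and 37 counts with erianin against 0, 0 and 2 with DMSO. KCNE2 had 0, 1 and 0 counts with DMSO and 5, 6 and 10 with erianin, KCNE5 had a log2 fold change of 0.74 (edgeR adjusted p = 0.326), and KCNE3 had 0 in all 6 libraries. PKD1L1 (ENSG00000158683, chr7:47740202-47948491) encodes a polycystin of cilia that takes part in left-right patterning. PKD1L1 had 0, 0 and 2 counts with DMSO and 14, 17 and 10 with erianin. Its relative PKD1L2 had 9, 6 and 8 counts with DMSO and 40, 38 and 34 with erianin and rose by 2.01 on the log2 scale (standard error 0.32, edgeR adjusted p = 0.00864). PKD1L2 could be tested only because of its erianin counts. PKD1, the abundant member at 119 CPM with DMSO and 113 CPM with erianin, had a log2 fold change of -0.17 and did not pass.

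Regulators of signaling were RGS4 and RASGEF1B. RGS4 (ENSG00000117152, chr1:163068775-163076802) encodes a protein that speeds GTP hydrolysis by Gi and Gq alpha subunits and so shortens receptor signaling. RGS4 had 0 counts in all DMSO libraries and 16, 12 and 12 with erianin (0.397 ± 0.0731 CPM, SD, n = 3). Of 20 other RGS genes, 13 could be tested and 2 were called higher, where 5.37% of all tested genes were called higher. RGS2 had 20, 46 and 32 counts with DMSO and 168, 158 and 198 with erianin, and rose by 2.19 on the log2 scale (standard error 0.22, edgeR adjusted p = 0.00230). RGS16 rose by 2.36 (standard error 0.25, edgeR adjusted p = 0.00262), from 1.19 to 6.47 CPM. RASGEF1B (ENSG00000138670, chr4:81426393-82044244) encodes a guanine nucleotide exchange factor for Ras-family GTPases. RASGEF1B had 0, 2 and 0 counts with DMSO and 14, 27 and 24 with erianin. RASGEF1A had 0, 0 and 2 counts with DMSO and 2, 4 and 9 with erianin, and RASGEF1C had between 2 and 9 with DMSO and between 5 and 14 with erianin.

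The transcription factor genes were PRDM1 and OVOL1. PRDM1 (ENSG00000057657, chr6:106086320-106109939) encodes Blimp-1, a zinc finger repressor known for plasma cell differentiation. PRDM1 had 0, 2 and 0 counts with DMSO and 20, 29 and 32 with erianin (0.802 ± 0.178 CPM, SD, n = 3), at least 20 in every erianin library. Its span lies inside that of ATG5, an autophagy gene on the opposite strand with 366, 514 and 593 counts with DMSO and 810, 783 and 770 with erianin (log2 fold change 0.45, edgeR adjusted p = 0.0422, under the fold threshold). Of 14 other PRDM genes, 9 could be tested and 0 were called, where 5.37% of all tested genes were higher and 3.36% lower. OVOL1 (ENSG00000172818, chr11:65787022-65797219) encodes a zinc finger factor of epithelial differentiation. OVOL1 had 0, 2 and 0 counts with DMSO and 18, 17 and 14 with erianin, the narrowest spread of the 20 genes, its highest erianin count being 1.29 times its lowest. OVOL2 had 4, 4 and 0 counts with DMSO and 8, 0 and 10 with erianin, and OVOL3 had at most 2 in any library.

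Genes ordinarily restricted to a single tissue were AGXT and CRYBB3. AGXT (ENSG00000172482, chr2:240868479-240880502) encodes the liver peroxisomal enzyme that converts glyoxylate to glycine. AGXT had 0 counts in all DMSO libraries and 12, 19 and 29 with erianin, the widest spread of the 20 genes, its highest erianin count being 2.42 times its lowest. AGXT2 had 6, 16 and 18 counts with DMSO and 29, 18 and 30 with erianin, and was not called (log2 fold change 0.72, edgeR adjusted p = 0.249). CRYBB3 (ENSG00000100053, chr22:25199850-25207363) encodes a beta-crystallin, a structural protein of the lens. CRYBB3 had 0, 2 and 2 counts with DMSO and 13, 18 and 12 with erianin, while CRYBB2, CRYBB1, CRYBA1 and CRYBA4 had at most 4 in any library. CRYBA2, the 1 relative that could be tested, was not called (log2 fold change 0.41, edgeR adjusted p = 0.382).

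DIP2C, MSANTD1 and 2 identifiers without a symbol completed the set beside a small nucleolar RNA. DIP2C (ENSG00000151240, chr10:274190-689668) had 2, 2 and 0 counts with DMSO and 10, 11 and 20 with erianin. Its relatives were abundant and not called, DIP2B at 94.0 CPM with DMSO and 104 CPM with erianin and DIP2A at 42.8 CPM and 39.9 CPM. MSANTD1 (ENSG00000188981, chr4:3244369-3271738) had 2, 0 and 0 counts with DMSO and 14, 20 and 26 with erianin. MSANTD1 begins 409 bases beyond the end of HTT on the same strand, and HTT had between 4369 and 6126 counts with DMSO and between 5081 and 5161 with erianin. ENSG00000222040 had 0 counts in all DMSO libraries and 10, 20 and 10 with erianin, and ENSG00000184040 had 2, 0 and 0 with DMSO and 10, 13 and 15 with erianin. Neither identifier is paired with a symbol in the tables used here.

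SNORA11F (ENSG00000221164, chr10:73126080-73126207, minus strand) is the only noncoding RNA among the 18 genes found in GENCODE release 29. It belongs to the H/ACA box small nucleolar RNAs, which guide pseudouridine formation in other RNAs, and lies within NUDT13 on the opposite strand. SNORA11F had 0, 3 and 3 counts with DMSO and 11, 10 and 13 with erianin, and no other gene of the 20 had a DMSO count of 3. The family has near copies, and the sequences are shown because reads of such copies can be split between them. SNORA11F and SNORA11D were identical at 120 of 129 aligned positions (93.0%), and the 5 other family members in the table had 0 counts in all 6 libraries. SNORA11D and SNORA11E have the same sequence, so their reads cannot be told apart. How such reads were counted is not given in the sources used here, and their 0 counts do not show that they were silent. The sequences shown come from GENCODE release 29 on GRCh38, and capitals in the second mark bases that differ from SNORA11F in the alignment or stand opposite a gap.

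SNORA11F: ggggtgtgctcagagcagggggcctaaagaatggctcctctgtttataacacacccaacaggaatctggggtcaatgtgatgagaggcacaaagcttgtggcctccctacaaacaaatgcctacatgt
SNORA11D: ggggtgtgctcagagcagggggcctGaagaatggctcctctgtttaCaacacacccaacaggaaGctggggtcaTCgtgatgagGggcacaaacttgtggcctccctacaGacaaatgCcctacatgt

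The genes listed at 0 in all 3 DMSO libraries were FOLR3, AGXT, RGS4 and ENSG00000222040. A count of 0 over the pooled DMSO reads allows a level of up to 0.0331 CPM, taking 3 counts as the limit, for counting error only. Whether both reads of a pair were counted is not given in the sources used here. If they were, the fragments behind every count, including the limits of the rule, would be fewer than the counts, and this limit would be higher. Their lowest single value with erianin was 10 counts, for ENSG00000222040. In bulk RNA, few cells with much RNA of a gene and many cells with little cannot be told apart, so these counts do not say how many cells carried the transcript.

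With erianin the 20 genes remained among the lowest of the detected genes. Their mean normalized count ranged from 0.337 CPM (SNORA11F) to 0.902 CPM (KCNE4) with a median of 0.511 CPM, against a median of 24.99 CPM over the 12626 genes with at least 10 counts in each erianin library. Per length, in the deposited TPM, the median of the 20 was 0.555 against 13.2 over those 12626 genes, and the median rank of the 20 was percentile 5.93. SNORA11F, at 17.2 ± 2.50 TPM (SD, n = 3) and percentile 56.4, stood above the others, from 34 summed counts on an annotated length of 128 bases. With DMSO its TPM were 0, 4.39 and 4.17, from 0, 3 and 3 counts. Their mean, 2.85 TPM, was above the erianin mean of every protein-coding gene of the set, so SNORA11F was not silent with DMSO per length. Among the protein-coding genes CRYBB3, MMP3 and KCNE4 were highest per length, at 1.89 ± 0.390, 1.81 ± 0.358 and 1.41 ± 0.282 TPM (SD, n = 3 each), and CDH23 was lowest, at 0.0558 ± 0.00910 TPM (SD, n = 3). The length that the TPM imply, scaled so that the median gene matches, was between 0.422 (SNORA11F) and 2.03 (SPP1) times the summed exon length in GENCODE release 29, so levels per length depend on the transcript model. Per kilobase of summed exons, the order differed, with CRYBB3 at 0.491 CPM, FOLR3 at 0.427 CPM, MMP3 at 0.388 CPM, SPP1 at 0.231 CPM and KCNE4 at 0.219 CPM.

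**Figure D3:**
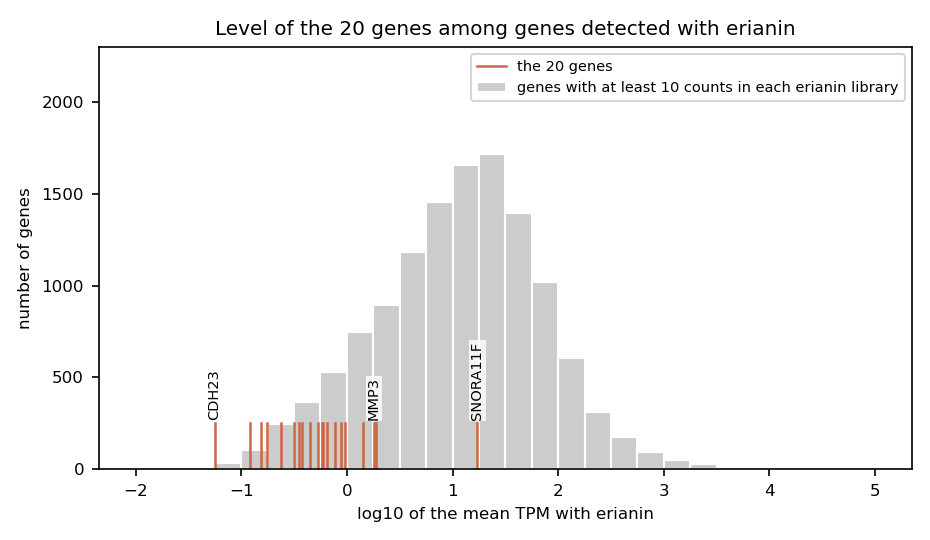
Distribution of the mean TPM with erianin (log10 axis) over the 12626 genes with at least 10 counts in each erianin library (grey bars, number of genes), with the 20 genes as orange lines whose height has no meaning. All but SNORA11F lie left of the centre of the distribution, and CDH23 is the lowest.

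The same rule with the groups exchanged took no gene (0 of 39327, 0%). Of 25202 genes with at most 3 counts in each DMSO library, 116 reached 10 counts in 1 erianin library, 30 in 2 and 20 in all 3. Of 24339 genes with at most 3 counts in each erianin library, 9 reached 10 counts in 1 DMSO library and none in more. The number of genes with at least 1 count was 14551, 15015 and 14942 in the DMSO libraries and 15778, 15873 and 15857 in the erianin libraries. The erianin libraries were deeper on the whole. When each library was reduced by calculation to the lowest total, the expected numbers were between 14551 and 14860 with DMSO and between 15622 and 15699 with erianin, so the groups still did not overlap. With counts scaled to the lowest total before the rule was applied, 8 genes met it and 0 met it with the groups exchanged. These 8 were MMP3, KCNE4, PRDM1, CDH23, RASGEF1B, SPP1, OVOL1 and MSANTD1.

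**Figure D4:**
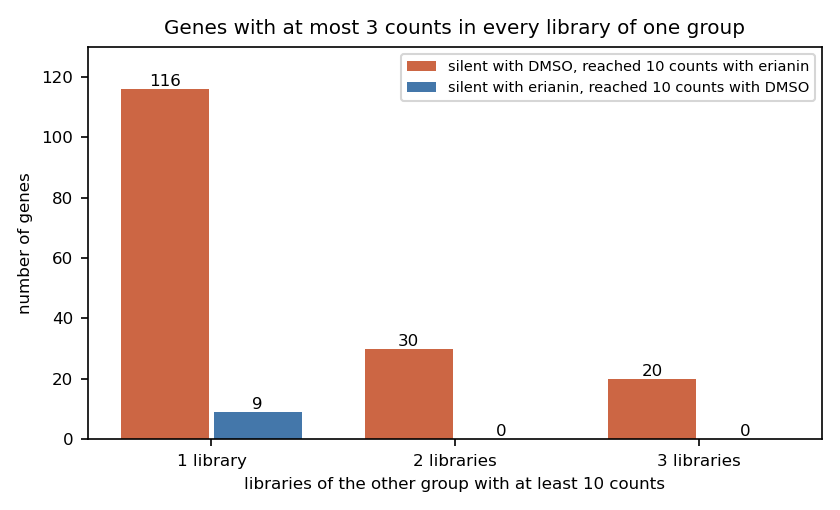
Number of genes with at most 3 counts in every library of one group that reached at least 10 counts in 1, 2 or 3 libraries of the other group. Orange bars are genes silent with DMSO (116, 30 and 20) and blue bars genes silent with erianin (9, 0 and 0).

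Around the limits of the rule the genes formed a continuum. Inside it, PKD1L1, DIP2C, GPR182, SNORA11F and both identifiers without a symbol had a lowest erianin count of exactly 10. Outside it, 28 genes had a highest DMSO count of 4 with at least 10 counts in every erianin library, and 17 had a lowest erianin count of 8 or 9 with at most 3 in every DMSO library. XIRP1, which encodes an actin-binding protein of striated muscle, had 0, 4 and 2 counts with DMSO and 56, 60 and 42 with erianin, above every gene inside the rule. DCAF4L1 had 0, 4 and 4 against 30, 24 and 29, SULT1C2, a sulfotransferase gene, 4, 2 and 2 against 16, 24 and 34, and INHBB, an inhibin subunit gene, 4, 4 and 0 against 18, 26 and 24. Asking for 0 counts in each DMSO library left 4 genes, and allowing 5 gave 53. Asking for at least 20 counts in each erianin library left KCNE4, PRDM1 and MMP3, and allowing 5 gave 101 genes against 1 with the groups exchanged.

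**Figure D5:**
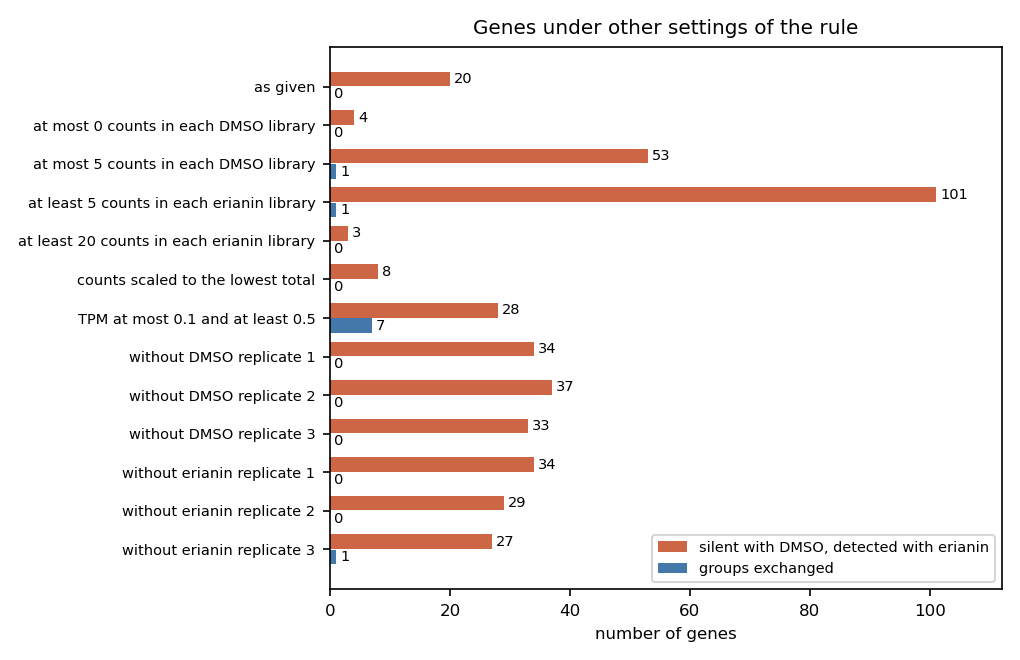
Number of genes that met the rule (orange) and that met it with the groups exchanged (blue) as given and under other limits, with counts scaled to the lowest total, in TPM, or with 1 library left out. The orange bars range from 3 to 101 genes and the blue bars from 0 to 7.

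Nearly all placed genes of the set coded for proteins. Of the 18 genes found in GENCODE release 29, 17 were protein-coding and 1 was a snoRNA. Protein-coding genes made up 23.4% of the genes silent with DMSO and 96.3% of those detected in each erianin library. The 18 genes lie on 9 chromosomes, with at most 3 on any of them, and no pair of them lies within 5000 bases of each other. On the annotation, 10 of the 18 overlapped another gene and 13 had one within 5000 bases or overlapping. Of 34 such neighbours, 10 could be tested, 1 was called higher (VSIR) and 0 lower, against 5.37% and 3.36% of all tested genes.

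Of 130 relatives of the 20 genes, 70 had too few counts to be tested. Over 17 families, drawn up by symbol after the members were known, 130 other genes were in the table and 60 could be tested. Of these, 8 were called higher (13.3%, against 5.37% of all tested genes) and 0 lower, in 4 families, namely the metalloproteinases, the Notch ligands, the polycystins and the RGS proteins. The filter asks for enough counts in as many libraries as a group holds. A gene low with DMSO, such as MMP10 or PKD1L2 among the 8, could thus be tested only when it was higher with erianin. In 13 families no other gene was called, and in 5 of these none had enough counts to be tested.

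Tissue and response lists placed 1 of the 20 genes, AGXT in the liver list. Of the 20 liver genes, 14 had at most 3 counts in each DMSO library, and SERPINA1 was the 1 called of the 3 others that could be tested (log2 fold change 0.96, standard error 0.21, edgeR adjusted p = 0.0232). HP, a plasma haptoglobin gene, had 0 counts in all DMSO libraries and 8 in each erianin library, while ALB had between 2 and 6 with DMSO and between 4 and 12 with erianin. FGA and AMBP had 0 in all 6. The summed level of the list, AGXT included, was 4.35 to 6.13 CPM with DMSO and 9.56 to 10.8 CPM with erianin. Of this sum, SERPINA1 alone averaged 3.02 CPM with DMSO and 6.25 CPM with erianin. Over all tested genes, 5.37% were called higher.

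The other tissue lists held none of the 20 genes, but their content limits this. None covered lens, inner ear or breast, and DNER was not among the listed neuronal genes. The lists therefore could not place CRYBB3, CDH23, BTN1A1 or DNER. The summed level of 20 testis and germline genes was 0 to 0.195 CPM with DMSO and 0.385 to 0.649 CPM with erianin, with 12 genes at 0 in all 6 libraries and none that could be tested. ACTL8 alone gave 0.421, 0.207 and 0.413 CPM of this sum in the erianin libraries. The kidney and stomach list (19 genes in the table) summed to 0.466 to 0.778 CPM and 1.74 to 1.75 CPM. Of this sum, AQP3 alone averaged 0.119 CPM with DMSO and 0.732 CPM with erianin. The retina list (20 genes) summed to 4.99 to 6.22 CPM and 6.96 to 8.09 CPM. In the kidney and stomach list 0 of 2 tested genes were called by edgeR, and in the retina list 0 of 5. The epidermal list (19 genes in the table) summed to 20.9 to 26.8 CPM with DMSO and 39.4 to 40.7 CPM with erianin. Of its 6 testable genes 3 were called higher (SBSN, KRT16 and KRT14) and 1 lower (FLG). KRT14 had 4, 2 and 2 counts with DMSO and 23, 20 and 22 with erianin, missing the rule on 1 DMSO count. It could be tested only because of its erianin counts. The blood and immune, muscle and neuronal lists overlapped between the groups, at 20.6 to 25.5 CPM and 24.9 to 28.1 CPM, 9.08 to 10.1 CPM and 9.71 to 11.0 CPM, and 243 to 293 CPM and 281 to 306 CPM. In the neuronal list, where ENO2 alone averaged 164 CPM with DMSO and 201 CPM with erianin, SYP and GAD1 were called higher and RBFOX3 and MAPT lower, of 10 tested. In the blood and immune list 0 of 5 tested genes were called by edgeR, and in the muscle list 0 of 2. Over all tested genes, 5.37% were higher and 3.36% lower. The part of other cell types in the 20 genes was not tested.

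Of the response lists, the early response list had 9 of 19 tested genes called higher and 1 lower, where 5.37% of all tested genes were higher and 3.36% lower. For the integrated stress response the numbers were 2 higher and 2 lower of 17, and for heat shock 3 higher and 0 lower of 16. None of the 20 genes belonged to these lists.

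Promoter sequences from RefSeq (GRCh38.p14) were found for 11 of the 20 genes, taking 250 bases before and 50 after the start given there for each. Other starts were not examined. The spans of RASGEF1B and FOLR3 in GENCODE release 29 reach far beyond the starts used, and several other spans, such as that of BTN1A1, differ from them by less. The motifs searched on both strands were TATAAA for the core promoter box, TGACGTCA for the cyclic AMP response element, TGANTCA for AP-1, TGATGNAA for the amino acid response element, GAANNTTC for the heat shock element, CACGTG for the E-box, GCGTGGGCG for EGR factors, and CCAAT. AP-1, cyclic AMP, amino acid response and E-box letters were in none of the 11 windows and in 7.72%, 1.97%, 3.67% and 7.41% of the windows of all 27305 genes. CCAAT was in 3 of the 11 windows, those of AGXT, CRYBB3 and RASGEF1B, and in 35.7% of all windows. The EGR letters were in the window of RASGEF1B and in 0.791% of all windows, the heat shock letters in that of PRDM1 and in 6.86%, and the core promoter letters in that of RASGEF1B, after the start, and in 12.02%. The median GC content of the 11 windows was 58.3%, equal to that of all genes.

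The 250 bases before the start are shown for RASGEF1B (chr4:81471908-81472157, minus strand) and PRDM1 (chr6:106086086-106086335, plus strand), since these windows held the EGR letters, the rarest searched, and the heat shock letters, the only searched stress response element found in the 11 windows. Capitals mark the EGR letters and an inverted CCAAT in RASGEF1B, at positions -119 and -95 from the start, and the heat shock letters in PRDM1, at -182. A match of letters is a description and not a binding site.

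RASGEF1B: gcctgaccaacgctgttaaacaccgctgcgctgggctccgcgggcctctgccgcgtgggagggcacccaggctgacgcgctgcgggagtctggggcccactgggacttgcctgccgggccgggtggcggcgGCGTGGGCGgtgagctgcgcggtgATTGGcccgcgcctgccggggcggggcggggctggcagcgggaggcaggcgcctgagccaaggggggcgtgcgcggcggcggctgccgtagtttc
PRDM1: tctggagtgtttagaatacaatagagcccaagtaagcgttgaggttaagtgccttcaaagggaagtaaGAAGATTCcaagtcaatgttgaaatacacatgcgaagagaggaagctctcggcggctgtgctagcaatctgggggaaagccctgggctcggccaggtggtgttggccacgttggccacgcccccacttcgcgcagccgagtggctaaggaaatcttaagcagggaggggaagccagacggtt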

How the data were processed

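Raw read counts per gene were deposited for 3 DMSO and 3 erianin libraries of CAL62 cells, sequenced on the BGISEQ-500 per the study's methods (the labels name Illumina protocols for the libraries), and the authors also deposited TPM of the same libraries, whose columns sum to between 59.1% and 78.3% of their nominal total. The submitters' processing notes name fastp 0.23.2, STAR 2.7.10, featureCounts 2.0.1, StringTie 2.2.1 and GRCh38, without roles, and the annotation release and strand setting are not given in the sources used here. Of 65807 rows, 26480 carry no identifier. These hold at most 0.00515% of the counts, and none met the rule, and they were left out.

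The members and lists were chosen with earlier results of these data known. All 20 members are named, with the 4 most abundant genes just outside the rule, relatives and neighbours. Genes of the fixed lists are mostly given as counts. CPM used the reads on genes with an identifier. Positions came from GENCODE release 29 by identifier.

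Counts were tested with edgeR 4.0.16 run in R 4.3.3 with TMM factors, its expression filter on the groups and the quasi-likelihood test. A call required a Benjamini-Hochberg adjusted p under 0.05 and a change of more than 0.5 on the log2 scale. The standard error is the log2 fold change divided by the root of F. Of the 20 members, 16 passed the low-count filter, and no test of them is given. Alternatives were DESeq2 1.42.0, RLE factors, no filter, the replicate number as a block and each library left out, and other limits of the rule. P-values measure the spread between replicate libraries of one cell line. Intervals and limits cover counting error only. Python 3.11.15, pandas 2.3.3 and matplotlib 3.10.9 were used.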

Additional observations from a re-analysis of the deposited data

How the results depend on the processing

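The number of genes that met the rule moved with its limits and with depth. From 20 it became 4 with 0 counts in each DMSO library, 53 with at most 5, 101 with at least 5 counts in each erianin library, 3 with at least 20, and 8 with counts scaled to the lowest total, all by construction, since scaling lowers the erianin counts and the 12 genes lost had a lowest erianin count of 10 or 12. In TPM, with at most 0.1 in each DMSO library and at least 0.5 in each erianin library, 28 genes met the rule and 7 with the groups exchanged, and 5 of the 28 were among the 20. Summing rows of the same identifier left 20. With 1 library left out the number ranged from 27 to 37, since fewer libraries have to meet the limits. It was 34, 37 and 33 without DMSO replicates 1, 2 and 3 and 34, 29 and 27 without erianin replicates 1, 2 and 3. For the same reason, the 20 are among them each time by construction.

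By edgeR, 688 genes were higher and 431 lower with erianin, and DESeq2 gave 827 and 525, RLE factors 688 and 444, and no low-count filter 642 and 483. Pairing of libraries by number was not borne out, since deviations of same-numbered libraries correlated at 0.00123, 0.0250 and -0.0328 across genes, and with the replicate block the numbers were 384 and 281. Across the fits that left out 1 library, 172 to 1485 genes were higher and 126 to 797 lower, the most without DMSO replicate 3. Without erianin replicates 1, 2 and 3 there were 184, 172 and 183 higher and 144, 140 and 126 lower, and without DMSO replicates 1 and 2 there were 433 and 425 higher. Counts of 10 to 37 limit the precision of every level given for the 20 genes.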
